A study of Mus musculus with 11 samples.

Results

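Ovalbumin (OVA), the egg protein used to provoke allergic airway disease in mice, was compared with saline in lungs of Foxa3 knockout mice (Foxa3-/-). The members are the 3 arrays titled Foxa3-/- OVA and the 2 titled Foxa3-/- saline, 5 of the 11 arrays of the series. The other 6 arrays are littermate controls (WT in the labels), 3 after saline and 3 after OVA. They entered the fit for the common estimate of the spread and give the values set beside the knockout response. Each array measured total RNA of lung on a one-colour Agilent design of 60-base probes. Both knockout groups lack Foxa3 by label, and they differ in the challenge. The labels give no age, strain, sex, dose or time of challenge, and do not say which part of Foxa3 was removed. They also do not say whether each array was 1 animal, so p-values measure only the spread between these samples.

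FOXA3 is a forkhead transcription factor related to FOXA1 and FOXA2, all of which act in epithelia that derive from the gut tube. In airways exposed to allergen, type 2 cytokines drive secretory cells toward the mucus-producing goblet state, macrophages toward the alternatively activated state, and induce chemokines that draw eosinophils, T cells and monocytes into the tissue. Goblet cells release gel-forming mucins, and they also make AGR2, which folds mucins, and the anion exchanger SLC26A4 (pendrin). Club cells of the small airways carry much of the lung's drug-metabolising enzyme.

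Values below are scaled log2 intensities: log2 of the background-subtracted spot signal minus the array's 75th percentile, so that 0 is the 75th percentile of that array. Arrays are named saline 1 and 2 and OVA 1, 2 and 3, and all are knockout unless control is written. A difference is the mean over OVA arrays minus the mean over saline arrays, on the log2 scale, with its standard error (n = 3 and 2). Adjusted p is limma's over the 22085 genes tested, and "called" means adjusted p under 0.05.

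Foxa3 itself was not well above background on any of the 5 knockout arrays. Its level was -8.45 and -8.62 after saline and -8.55, -9.07 and -7.62 after OVA, a difference of 0.12 ± 0.34 (adjusted p 0.853). Of its relatives, Foxa1 lay at -0.43 and -0.52 after saline and at -0.78, -0.80 and -1.24 after OVA (-0.47 ± 0.22, adjusted p 0.187). Foxa2 lay at 3.69 and 3.79 after saline and at 3.03, 3.48 and 2.94 after OVA (-0.59 ± 0.18, adjusted p 0.0684). For both relatives every OVA array lay below every saline array, as it did for 24.4% of all genes, and neither was called.

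Between 71.1% and 78.9% of the 41174 probes were well above background on an array, and 0 or 1 spots were saturated. Markers of alveolar type I cells (15 of 15), alveolar type II cells (18 of 18) and club cells (20 of 20) were all measured. The 7 probes of Y-linked genes were well above background on 0 of 11 arrays and the 4 Xist probes on 11 of 11. The arrays came from 3 slides. Slide 1 held saline 2 and OVA 1, slide 2 held saline 1 and OVA 3, and slide 3 held OVA 2 and no knockout saline array. In a principal component analysis of the 5 knockout arrays the first component (55.8% of the variance) placed saline at -64.2 and -52.7 and OVA at 42.4, 10 and 64.4, with OVA 2 nearest to saline. The second (23.7%) placed the slide 1 arrays at -30.9 and -49 and the others between 23.8 and 29.7. Since group and slide cross, differences are also given within slide 1 and within slide 2.

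OVA changed 1819 of the 22085 genes in knockout lung (8.24%). Of these, 1424 rose (6.45%) and 395 fell (1.79%). At least 2-fold changes numbered 960 up (4.35%) and 87 down (0.394%). The median difference over all genes was -0.01. All OVA arrays lay above all saline arrays for 5397 genes (24.4%) and below them for 5394 (24.4%). So groups that did not overlap were equally common in both directions, while called rises outnumbered called falls. Rises were 78.3% of the calls, but 64% with normexp without spots of bright local background and 57.5% with the authors' value table. They were 60.8% with array weights, 66.9% with a trended robust prior and 68.1% over genes detected on all 11 arrays. In the other direction they were 95% with the 5 knockout arrays alone, 94.2% with the replicate block, 92.8% with slide as a block and 87.3% without a filter on dim probes. With 1 array left out the share ran from 60.7% (without OVA 2) to 96.2% (without OVA 3).

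The number of calls rested on single arrays. Without saline 1 it was 83, without saline 2 it was 440, without OVA 1 it was 719, without OVA 2 it was 3342 and without OVA 3 it was 556. Leaving out a control array gave 1025 without control saline 2, 1121 without control saline 3, 1114 without control OVA 3 and 3090 without control OVA 1. With slide as a block, 856 genes were called (794 up, 62 down), and 789 of these were among the 1819. Without the 4 arrays of slide 1, 13 genes were called, and without those of slide 2, 3 were. With normexp background correction over all spots limma called 0 genes, with 1997 at an unadjusted p under 0.05 against 6675. Of the 160 called genes chosen by the naming rule, 24 kept their call whichever array was left out. Those 24 are Agr2, Birc5, Capn9, Ccl7, Ccl8, Ccnb1, Cd209d, Cd80, Cd83, Cfb, Chil4, Clec10a, Cxcl10, Cxcl13, Cxcl9, Itln1, Lag3, Lcn2, Pdcd1, Saa3, Sele, Slc26a4, Spdef and Ubd. Under the settings tried, 0 of the 160 changed direction. The groups did not overlap for any of the 1819 called genes, so leaving out arrays could not change a direction. Without saline 1, 136 of the 160 lost their call, and 97 did so without saline 2. With slide as a block 61 lost it. Such losses apply to most genes given below and are not repeated at each one.

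The largest rise was that of Ubd, which encodes a ubiquitin-like protein of inflamed tissue. Ubd lay at -6.80 and -6.18 after saline, well above background on 1 of those 2 arrays, and at 0.48, -0.69 and 1.88 after OVA (7.05 ± 0.73, adjusted p 0.00272). The next were chemokines, the secreted proteins that guide leukocytes. Ccl24, an eosinophil attractant, went from -2.60 and -1.37 to 5.10, 3.01 and 6.03 (6.70 ± 1.21, 104-fold, adjusted p 0.0147). Ccl8, a monocyte attractant, went from -1.59 and -1.11 to 4.65, 4.24 and 5.80 (6.25 ± 0.64, adjusted p 0.0026). Cxcl9, which draws activated T cells, went from -4.59 and -4.69 to 1.24, 1.49 and 2.01 (6.22 ± 0.33, adjusted p 0.000326). For all 4 genes the lowest OVA array lay more than 4 log2 units above the highest saline array.

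Other genes among the 14 largest rises came from secretory cells, macrophages and the acute-phase response. The acute-phase gene Saa3 lay at -1.98 and -1.99 after saline and at 3.99, 3.69 and 4.11 after OVA (5.92 ± 0.44, adjusted p 0.000866), with less spread among arrays than Ccl24. Retnlb, which encodes a resistin-like protein of goblet cells, lay at -8.80 and -5.79 after saline and at -0.90, -2.42 and -1.09 after OVA (5.83 ± 0.89, adjusted p 0.00789). Ubd, Retnlb and Capn9 lay on saline 1 below the lowest signal counted as detected there (-6.50), so the size of their rises is uncertain. Arg1, the arginase of alternatively activated macrophages, varied most among the OVA arrays. It lay at -3.40 and -2.85 after saline and at 2.37, 0.46 and 4.44 after OVA (5.55 ± 1.32, adjusted p 0.0382; 0.0895 with slide as a block). Pdcd1lg2, the PD-1 ligand PD-L2, rose 32.1-fold, the macrophage elastase Mmp12 by 4.85 ± 0.76, Ccl7 by 4.82 ± 0.55 and the calpain Capn9 by 4.76 ± 0.52 (adjusted p 0.00324 to 0.0102). Ceacam19 and Itln1 were not well above background on either saline array, so their rises are bounds of at least 15.3-fold and at least 21.8-fold. A bound of this kind sets the mean of the detected group against the lowest signal counted as detected on the arrays of the other group. A second probe for Ceacam19 was higher by 1.38 and was not called.

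The falls were fewer and smaller. Fabp1, a fatty-acid binding protein, had the largest: 2.15 and 2.41 after saline against -2.69, -0.66 and -2.72 after OVA (-4.30 ± 0.91, 19.8-fold lower, adjusted p 0.0264; 0.0686 with slide as a block). Pon1, a paraoxonase, lay at 3.22 and 3.04 after saline and at 0.45, 1.38 and -0.40 after OVA (-2.66 ± 0.61, adjusted p 0.0351). In these genes OVA 2 lay nearest to saline. No array of one group reached the other, which held for every called gene. The sulfotransferase Sult2a2 was detected on both saline arrays and on 0 of 3 OVA arrays, a fall of at least 3.11-fold (adjusted p 0.0097). The myosin heavy chain Myh2 likewise fell at least 3.64-fold (adjusted p 0.0227), while its other probe differed by -1.45 and was not called.

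The remaining large falls included Asgr1, an asialoglycoprotein receptor subunit (-2.01 ± 0.33, adjusted p 0.00977), the sulfotransferase Sult1d1 (-2.16 ± 0.49, adjusted p 0.0333) and Kcnip4, a potassium-channel partner (-2.02 ± 0.38, adjusted p 0.0162). They also included Gdpd2, a phosphodiesterase family member (-2.29 ± 0.59), the adrenergic receptor Adra2c (-1.86 ± 0.44), above background on 1 of 3 OVA arrays, Azgp1 (-1.70 ± 0.36), the transcriptional repressor Hes2 (-1.61 ± 0.27) and the thiamine transporter Slc19a3 (-1.61 ± 0.38). Adjusted p for these 5 lay between 0.0105 and 0.0475. Second probes for Kcnip4 and Hes2 differed by -0.63 and -0.18 and were not called. With slide as a block Sult2a2, Myh2, Asgr1 and Hes2 remained called and the other 10 of the 14 largest falls did not (adjusted p 0.0506 to 0.0991). Krtap28-13 also passed (adjusted p 0.0368) but was not well above background on any of the 5 arrays, so no fold is given.

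**Figure D1:**
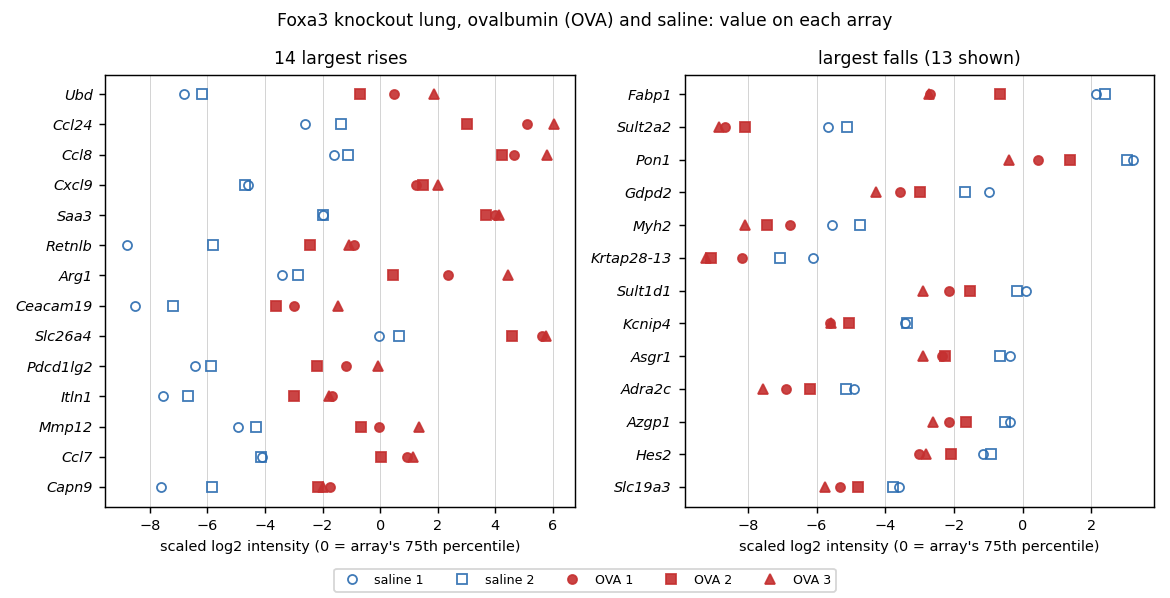
Scaled log2 intensity of the 14 largest rises (left) and the largest falls (right, 13 shown) on each Foxa3 knockout array, with 0 at the array's 75th percentile; open blue symbols are the 2 saline arrays and filled red symbols the 3 OVA arrays. The groups do not overlap for any gene shown, as their choice required, and OVA 2 (red squares) is the OVA array nearest to saline for many of them, Ccl24 (3.01) and Fabp1 (-0.66) among them.

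Of 16 measured goblet cell and mucus genes, 11 rose and 0 fell, and the median difference was 1.54 against -0.01 for all genes (1.58 within slide 1 and 1.72 within slide 2). With slide as a block 9 rose, and without saline 1 the count was 4. Slc26a4 lay at -0.05 and 0.67 after saline and at 5.63, 4.58 and 5.76 after OVA (5.01 ± 0.49, adjusted p 0.0021). Agr2 lay at -1.01 and 0.18 and rose to 3.63, 2.92 and 2.99 (3.60 ± 0.36, adjusted p 0.00216). Muc5b, the gel-forming mucin present in uninflamed airways, went from 1.94 and 2.09 to 3.69, 3.52 and 3.61 (1.59 ± 0.21, adjusted p 0.00484). Bpifb1, a secreted protein of the airway lining, rose by 1.83 ± 0.24 (adjusted p 0.00518). The standard deviation among the OVA arrays was 0.65 for Slc26a4, 0.39 for Agr2, 0.25 for Bpifb1 and 0.09 for Muc5b. The groups did not overlap, as for every called gene. Itln1, the lectin with the bound given above, is a member too. Muc5ac, the mucin most tied to allergic goblet cells, was not measured, and Foxa3 is itself on the list. Whether more goblet cells or more RNA per cell lay behind such values cannot be told apart in whole lung, and the same holds for every cell type below.

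Among the transcription factors and signals of the airway epithelium, 3 of 20 rose and 0 fell (median -0.09). Spdef, which drives the goblet cell programme, lay at -1.31 and -2.13 after saline and at -0.07, -0.42 and -0.21 after OVA (1.48 ± 0.24, adjusted p 0.00884). Trp63, the basal cell factor p63, rose by 1.46 ± 0.27 (adjusted p 0.0161) and Sox9 by 3.02 ± 0.68 (adjusted p 0.0321; 0.0797 with slide as a block). The basal cell keratin Krt5 rose too, from -4.16 and -3.53 to -1.82, -2.45 and -1.68 (1.86 ± 0.46, adjusted p 0.0437). Sox9 varied widely among the OVA arrays, from -2.65 to -0.61. Without saline 1, OVA 1 or OVA 3 the count of the list was 1. In the ion and water transport list 4 of 20 rose and 1 fell (median -0.06). Beside Slc26a4, the glucose transporter Slc5a1 rose by 2.64 ± 0.34, the potassium channel Kcnn4 by 2.07 ± 0.37 and the aquaporin Aqp3 by 2.19 ± 0.45. Scnn1b, a subunit of the epithelial sodium channel, fell by 1.06 ± 0.24 (adjusted p 0.0333) and was no longer called with slide as a block (0.0835). The rising count was 1 without saline 1 and 2 without saline 2, and Scnn1b was not called without saline 1, saline 2, OVA 1 or OVA 3.

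The promoters of 2 of these genes, Slc26a4 and Agr2, are shown because a forkhead factor is the deleted gene. In the goblet cell list they come after Itln1 by p. Both hold the motif marked here, so they do not stand for the list. The windows are the 250 bases before the first listed start of each gene, from RefSeq on GRCm38.p6, on the gene's own strand. Capitals mark TGTTTNC, a forkhead-type core, searched on both strands. Slc26a4 is chr12:31559985-31560234 on the minus strand and Agr2 is chr12:35992675-35992924 on the plus strand.
Slc26a4: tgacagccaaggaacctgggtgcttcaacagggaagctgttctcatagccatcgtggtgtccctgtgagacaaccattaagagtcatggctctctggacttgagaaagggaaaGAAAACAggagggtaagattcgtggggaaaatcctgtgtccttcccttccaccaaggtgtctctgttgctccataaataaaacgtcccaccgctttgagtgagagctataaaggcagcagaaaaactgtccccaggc
Agr2: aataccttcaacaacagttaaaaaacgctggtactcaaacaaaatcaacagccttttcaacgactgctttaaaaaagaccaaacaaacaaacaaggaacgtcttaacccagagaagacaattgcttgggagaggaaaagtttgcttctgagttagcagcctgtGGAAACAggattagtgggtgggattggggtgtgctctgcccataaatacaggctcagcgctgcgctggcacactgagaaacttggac
The match begins 137 bases before the start in Slc26a4 and 87 bases before it in Agr2. Of the 10 goblet list genes with a window, 4 held the motif (40%), as did 3 of 14 club cell genes (21.4%) and 17.9% of 27025 genes in the promoter table. A match describes letters in a window and not a binding site.

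Calls in the club cell and xenobiotic metabolism lists were mostly downward, while over all genes 6.45% were called up and 1.79% down. Of 20 club cell genes 3 fell and 1 rose, with a median of -0.69 (-0.77 within slide 1 and -0.80 within slide 2). Aldh3a1, an aldehyde dehydrogenase, lay at -3.54 and -4.08 after saline and at -5.38, -5.20 and -5.32 after OVA (-1.49 ± 0.31, adjusted p 0.0253). Aox3, an aldehyde oxidase, fell by 0.82 ± 0.18 (adjusted p 0.0284). Gsto1, a glutathione transferase, went the other way, from 4.50 and 4.62 to 5.73, 5.72 and 5.37 (1.05 ± 0.18, adjusted p 0.0109). None of the 3 falls was called without saline 1, saline 2, OVA 1 or OVA 3, while 6 genes of the list fell without OVA 2 and 7 without control OVA 1 or control OVA 2. In the xenobiotic metabolism list 6 of 27 fell and 1 rose (median -0.75). Ephx1, the microsomal epoxide hydrolase, fell from 2.67 and 2.66 to 1.37, 1.73 and 1.31 (-1.20 ± 0.23, adjusted p 0.0193), and the glutathione transferase Gstm2 by 0.72 ± 0.18 (adjusted p 0.0422). Cyp1b1 rose by 0.88 ± 0.14 (adjusted p 0.0092). The number falling there was 0 without saline 1, saline 2, OVA 1 or OVA 3, 10 without OVA 2, 11 or 12 without control OVA 1 or 2, 2 without any other control array, and 1 with slide as a block.

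Alveolar and ciliated cell lists held no called member, but this depended on single arrays and settings. Without OVA 2, 7 alveolar type I genes and 3 type II genes fell. Without control OVA 1, 6 type I genes, 3 type II genes and 1 ciliated cell gene fell, and without control OVA 2, 2 type II genes did. Across the other settings up to 6 type I genes, 3 type II genes and 1 ciliated cell gene fell (all with array weights), and 1 type II gene rose with array weights or a trended robust prior. With all arrays the median of 15 alveolar type I genes was -0.57, of 18 alveolar type II genes -0.23 and of 20 ciliated cell genes -0.27. Ager, Aqp5 and Pdpn, type I markers, differed by -0.57 ± 0.22, -0.28 ± 0.14 and 0.11 ± 0.19 (adjusted p 0.126, 0.221 and 0.765). The surfactant genes Sftpa1, Sftpb and Sftpc differed by 0.03 ± 0.10, -0.97 ± 0.27 and -0.18 ± 0.15 (adjusted p 0.882, 0.0573 and 0.455). Foxj1, Rfx2 and Rfx3, factors of ciliated cells, differed by 0.09 ± 0.30, -0.12 ± 0.14 and 0.69 ± 0.29 (adjusted p 0.876, 0.627 and 0.152).

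Of 20 endothelial identity genes 3 fell and 0 rose (median -0.60), and all 20 had differences below 0. Over all genes 1.79% were called down and 6.45% up, and the median difference was -0.01. Pecam1, the junction protein CD31, went from 2.38 and 2.20 to 1.85, 1.85 and 1.74 (-0.48 ± 0.10, adjusted p 0.0288). The apelin receptor Aplnr fell by 0.57 ± 0.12 and the phosphatase Ptprb by 1.17 ± 0.28 (adjusted p 0.0283 and 0.0371). None of the 3 was called with slide as a block (adjusted p 0.0661 to 0.0845), or without saline 1, saline 2, OVA 1 or OVA 3, and 9 of the 20 fell without OVA 2. Without control saline 2, control OVA 3 and control OVA 1 the count was 0, 1 and 7. Second probes of the 3 genes differed by -0.76 to -0.45 and were not called. Of 11 activation genes 5 rose and 0 fell (median 0.74), with 1 rise without saline 1 and 2 falls without OVA 2 or without control OVA 1. Sele, E-selectin, was below background on both saline arrays and lay at -3.78, -4.29 and -4.79 after OVA, a rise of at least 5.07-fold (adjusted p 0.0034). P-selectin (Selp) rose by 1.89 ± 0.29, Vcam1 by 1.12 ± 0.16, the protein C receptor Procr by 1.52 ± 0.34 and the chemokine-binding receptor Ackr1 by 3.33 ± 0.39 (adjusted p 0.00374 to 0.0325). 

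Of 24 fibroblast and matrix genes 10 rose and 0 fell (median 0.56; 4 with slide as a block). The protease inhibitor Timp1 went from 0.33 and 0.56 to 5.27, 4.43 and 5.80 (4.72 ± 0.56, adjusted p 0.00384), and its other 2 probes were called too. The collagens Col3a1, Col1a1 and Col5a2 rose by 1.52 ± 0.18, 1.19 ± 0.21 and 1.21 ± 0.23 (adjusted p 0.00375, 0.0122 and 0.0182). Counts fell to 0 without saline 1, 4 without saline 2, 4 without OVA 1 and 3 without OVA 3, and to 6 without any 1 of the 3 control saline arrays. Of 15 smooth muscle and pericyte genes, the smooth muscle actin Acta2 rose by 0.47 ± 0.12 and Notch3 fell by 0.64 ± 0.14 (median 0.00), both calls lost with slide as a block (adjusted p 0.0894 and 0.0753). Over all genes 6.45% were called up and 1.79% down. In a list of developmental signals (25 genes, median -0.16) 4 rose and 2 fell. They were the ligands Gdf3 (at least 7.25-fold, adjusted p 0.0138), Inhba (2.34 ± 0.46) and Wnt5a (1.09 ± 0.25) and the Wnt binder Sfrp1 (1.67 ± 0.34), against Bmp6 (-1.38 ± 0.32) among the falls. Rises numbered 0 without saline 1, saline 2 or OVA 3 and 1 without OVA 1, and neither fall was called without any 1 of those arrays.

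**Figure D2:**
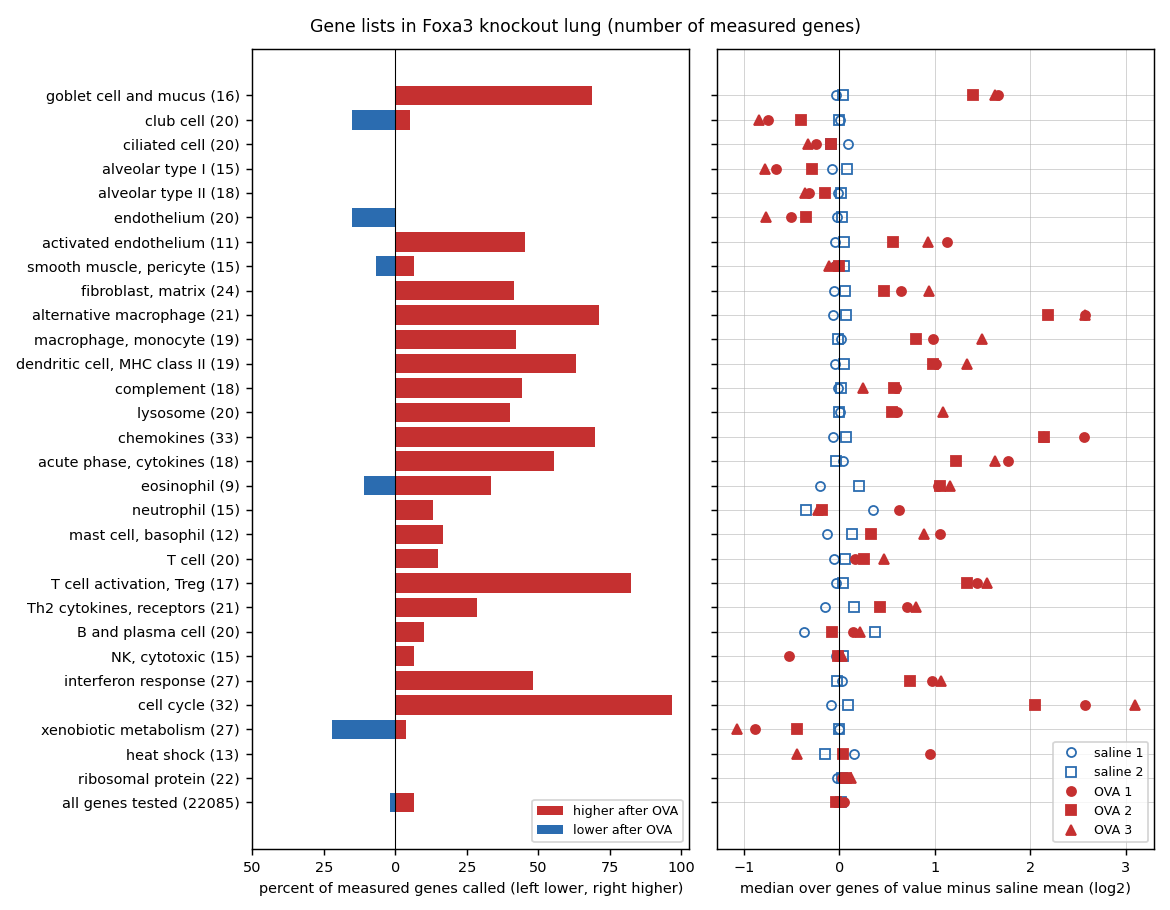
Left, percent of the measured genes of each list called higher (red, right) or lower (blue, left) after OVA in Foxa3 knockout lung. Right, for each array, the median over the list's genes of the value minus the saline mean (log2). Cell cycle, T cell activation and alternative macrophage genes reach furthest right (31 of 32, 14 of 17 and 15 of 21 called), while club cell, endothelium and xenobiotic lists lie left of 0 on all 3 OVA arrays.

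Of 21 measured macrophage genes of the alternatively activated state 15 rose and 0 fell, with a median of 2.42 (2.20 within slide 1 and 2.91 within slide 2), and 12 rose with slide as a block. The count was 2 without saline 1, 8 without saline 2 and 9 without OVA 3. The lectin Clec10a went from 0.34 and 0.42 to 2.54, 2.56 and 2.74 (2.23 ± 0.15, adjusted p 0.000866). Chil4, a chitinase-like protein, went from 3.47 and 3.60 to 6.10, 5.70 and 6.34 (2.51 ± 0.22, adjusted p 0.00124). The lectin Mgl2 rose by 1.97 ± 0.24 (adjusted p 0.00422), the lipoxygenase Alox15 by 3.29 ± 0.51 (adjusted p 0.00813), and the chemokine Ccl22, below background on both saline arrays, at least 2.88-fold (adjusted p 0.00693). Ccl24, Arg1 and Pdcd1lg2, given above, belong here. The saline arrays lay close together for Clec10a and Chil4, and the OVA arrays lay more than 2 log2 units higher.

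The window of Pdcd1lg2 is shown as that of a gene among the 14 largest rises. It covers chr19:29410669-29410918 on the plus strand, and capitals mark TTC and GAA with any 4 bases between them, searched on both strands, the spacing associated with STAT6, the factor that acts downstream of interleukin 4 and 13.
Pdcd1lg2: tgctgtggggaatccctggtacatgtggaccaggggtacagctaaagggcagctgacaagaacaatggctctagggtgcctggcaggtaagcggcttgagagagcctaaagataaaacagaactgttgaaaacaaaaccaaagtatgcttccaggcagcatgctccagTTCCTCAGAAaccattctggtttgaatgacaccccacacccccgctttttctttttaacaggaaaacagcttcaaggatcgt
The match begins 82 bases before the start. It was present in 4 of 14 windows of the list (28.6%), in 1 of 23 windows of chemokine genes (4.35%) and in 5.86% of all genes.

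Of 19 general macrophage and monocyte genes 8 rose and 0 fell (median 1.17). The scavenger receptor Msr1 went from -4.24 and -4.20 to -1.27, -1.70 and -0.16 (3.17 ± 0.52, adjusted p 0.0101), and the chemokine receptor Ccr2 rose by 2.19 ± 0.35 (adjusted p 0.00927). The macrophage receptor Adgre1, Cd14 and the integrin Itgax rose by 1.20 ± 0.20, 1.17 ± 0.18 and 2.11 ± 0.37. The count was 0 without saline 1, 1 without saline 2 and 5 without OVA 3. Of 19 dendritic cell and MHC class II genes 12 rose and 0 fell (median 1.07; 9 with slide as a block). H2-Ab1, a class II chain, went from 5.53 and 5.55 to 6.55, 6.60 and 6.88 (1.14 ± 0.15, adjusted p 0.00533), and its 3 other probes were called as well. Cd74, the class II chaperone, rose by 1.23 ± 0.18, H2-Eb1 by 1.43 ± 0.21, Cd83 by 1.70 ± 0.16 and the dendritic cell factor Batf3 by 3.21 ± 0.47 (adjusted p 0.002 to 0.0067). That count was 1 without saline 1 and 5 without saline 2.

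Of 18 complement genes 8 rose and 0 fell (median 0.50), with 7 rising with slide as a block and 1 without saline 1. Factor B (Cfb) went from 2.31 and 2.25 to 4.62, 4.45 and 4.88 (2.37 ± 0.19, adjusted p 0.000947). C3 rose by 1.04 ± 0.13, properdin (Cfp) by 2.05 ± 0.27, and the C1q chains C1qb and C1qc by 2.71 ± 0.37 and 2.44 ± 0.34 (adjusted p 0.00422 to 0.00593). Of 20 lysosomal genes 8 rose and 0 fell (median 0.71), 2 of them with slide as a block and 0 without either saline array. They include the cathepsins Ctss (1.61 ± 0.28), Ctsk (2.30 ± 0.40), Ctsz (1.30 ± 0.26), Ctsc (1.19 ± 0.25) and Ctsb (1.12 ± 0.26). A second probe for Ctsb was higher by 0.19 and was not called. The count was 3 without OVA 1, 2 without OVA 3, and 4 or 5 without any 1 control saline array or control OVA 3.

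Of 33 measured chemokine genes 23 rose and 0 fell (median 2.26; 2.45 within slide 1 and 2.29 within slide 2; 18 with slide as a block). The count was 6 without saline 1, 12 without saline 2 and 15 without OVA 3, and the median was 1.29 with the authors' value table. Cxcl10, like Cxcl9 a ligand of CXCR3, went from -2.77 and -2.45 to 1.98, 2.03 and 2.29 (4.71 ± 0.33, adjusted p 0.000866). Cxcl13, which guides B cells, went from -3.75 and -3.36 to 0.82, 0.53 and 0.41 (4.14 ± 0.38, adjusted p 0.00144). Ccl7 went from -4.09 and -4.15 to 0.94, 0.03 and 1.14. Every OVA array lay above every saline array here, as for every called rise and for 24.4% of all genes. Of 18 acute-phase and cytokine genes 10 rose and 0 fell (median 1.50; 2 without saline 1, 4 without saline 2, 6 without OVA 1 and 4 without OVA 3). Beside Saa3, Saa1 rose from -1.30 and -1.13 to 3.37, 2.77 and 3.15 (4.31 ± 0.57, adjusted p 0.00501). The siderophore binder Lcn2 rose by 1.79 ± 0.20 (adjusted p 0.00324), and Saa4 and Orm1, below background after saline, rose at least 5.97-fold and at least 3.13-fold.

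Among granulocyte lists, 3 of 9 measured eosinophil genes rose and 1 fell (median 1.19; 0.49 with the authors' value table), and 0 were called without saline 1. Prg2, the major basic protein, went from -5.07 and -4.67 to -0.92, -1.28 and -0.91 (3.83 ± 0.54, adjusted p 0.00627). The eotaxin receptor Ccr3 went from -5.40 and -4.55 to -2.11, -2.09 and -2.17 (2.85 ± 0.56, adjusted p 0.0202), though its second probe, higher by 1.69, was not called. Siglecf, carried by eosinophils and by alveolar macrophages, fell from -0.60 and -0.74 to -1.50, -1.37 and -1.45 (-0.77 ± 0.14, adjusted p 0.0151). Of 15 neutrophil genes 2 rose, Lcn2 and lactoferrin (Ltf, 1.22 ± 0.25), and the list median was 0.05, with 1.24 within slide 1 and -0.77 within slide 2. Of 12 mast cell and basophil genes 2 rose (median 0.80), namely the basophil protease Mcpt8, at least 5.21-fold (adjusted p 0.0293), and carboxypeptidase Cpa3 (0.92 ± 0.22, adjusted p 0.0411). Neither was called with slide as a block (0.0743 and 0.0798) or without saline 1, saline 2, OVA 1 or OVA 3.

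Of 20 T cell identity genes 3 rose (median 0.28), namely the signalling genes Lat (0.95 ± 0.18) and Zap70 (0.69 ± 0.17) and Cd5 (1.01 ± 0.25). Of 17 genes of T cell activation and regulatory T cells 14 rose and 0 fell (median 1.49; 11 with slide as a block). The inhibitory receptor Pdcd1 (PD-1) went from -4.36 and -4.27 to -0.84, -0.80 and -0.07 (3.75 ± 0.29, adjusted p 0.000866). Lag3 rose by 2.28 ± 0.22, the co-stimulatory ligands Cd80 and Cd86 by 1.45 ± 0.12 and 1.34 ± 0.16, and Tnfrsf9 (4-1BB) by 3.85 ± 0.48, while a second probe for Tnfrsf9 differed by -0.59 and was not called. The activation count was 3 without saline 1, 7 without saline 2, 9 without OVA 1 and 8 without OVA 3. The identity count was 0 without saline 1, saline 2 or OVA 3, and 1 without OVA 1, control saline 2 or control OVA 3.

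Cytokines of type 2 immunity and their receptors rose in part, 6 of 21 with a median of 0.54 (0.52 within slide 1 and 1.28 within slide 2; 2 with slide as a block). The interleukin 33 receptor Il1rl1 went from -0.79 and -0.87 to 0.51, 0.36 and 0.49 (1.29 ± 0.17, adjusted p 0.00501), and the alarmin Il33 itself rose by 1.64 ± 0.33 (adjusted p 0.0233). The interleukin 25 receptor Il17rb rose by 0.83 ± 0.16. Il5, the eosinophil growth factor, was below background on both saline arrays and lay at -5.04, -5.65 and -5.33 after OVA, a rise of at least 2.45-fold (adjusted p 0.0248). Il13ra2, the decoy receptor for interleukin 13, rose at least 3.65-fold (adjusted p 0.024). The count was 0 without saline 1, 1 without saline 2, 1 without OVA 1 and 2 without OVA 3. Of 17 genes of the type 1 and type 17 arms 6 rose and 0 fell (median 0.77). Examples are Il12rb1 (1.74 ± 0.29), Tnf (1.25 ± 0.29) and Cxcr3 (1.09 ± 0.27), with adjusted p from 0.01 to 0.0434 and 2 calls with slide as a block. The count was 0 without saline 1, 1 without saline 2, 3 without OVA 1 and 2 without OVA 3.

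Over all genes 6.45% were called up, and the B cell and cytotoxic lists lay near that share. Of 20 B and plasma cell genes 2 rose (median -0.01). The joining chain Jchain went from -0.43 and -0.96 to 0.94, 1.14 and 0.94 (1.71 ± 0.37, adjusted p 0.0299), with a second probe not called, and Irf4 rose by 1.72 ± 0.41 (adjusted p 0.0396). Of 15 natural killer and cytotoxic genes 1 rose, granzyme K (Gzmk, at least 3.52-fold, adjusted p 0.0495; 0.11 with slide as a block), and the list median was -0.17. None of these 3 was called without either saline array, OVA 1 or OVA 3.

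Cell cycle genes rose almost without exception. Of 32 measured genes 31 rose and 0 fell, the median was 2.56 (2.40 within slide 1 and 3.22 within slide 2), and 24 rose with slide as a block. Cyclin B1 (Ccnb1) went from -3.88 and -3.75 to -0.94, -1.32 and -0.35 (2.95 ± 0.32, adjusted p 0.00318). Birc5 (survivin) went from 0.18 and 0.42 to 3.44, 2.97 and 3.85 (3.12 ± 0.35, adjusted p 0.00359). The proliferation marker Mki67 went from 0.20 and 0.48 to 3.28, 2.77 and 3.67 (2.90 ± 0.35, adjusted p 0.00422). The ubiquitin-conjugating enzyme Ube2c rose by 2.87 ± 0.34 and the mitotic kinesin Kif20a by 2.72 ± 0.33 (adjusted p 0.004 and 0.00422). In all 5 OVA 3 was highest and OVA 2 lowest, and each OVA array lay more than 2 log2 units above both saline arrays. The count was 2 without saline 1 and 20 without saline 2.

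Windows of 2 of these genes are shown because 31 of the 32 genes of their list rose. Capitals mark CCAAT, the box bound by NF-Y, and TTTGAA, the core of the cell cycle homology region, on both strands. Ube2c is chr2:164769679-164769928 on the plus strand and Mki67 is chr7:135716380-135716629 on the minus strand.
Ube2c: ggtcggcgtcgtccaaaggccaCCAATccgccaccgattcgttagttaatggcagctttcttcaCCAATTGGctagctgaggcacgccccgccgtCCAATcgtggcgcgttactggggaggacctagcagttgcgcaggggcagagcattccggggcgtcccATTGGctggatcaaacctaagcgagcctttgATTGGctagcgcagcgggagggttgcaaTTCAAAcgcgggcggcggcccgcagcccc
Mki67: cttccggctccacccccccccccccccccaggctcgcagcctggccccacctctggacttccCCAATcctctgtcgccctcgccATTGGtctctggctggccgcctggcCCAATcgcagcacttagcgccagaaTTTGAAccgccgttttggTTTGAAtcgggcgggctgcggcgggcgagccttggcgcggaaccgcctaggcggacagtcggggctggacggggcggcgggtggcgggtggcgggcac
Ube2c held CCAAT at 6 places and TTTGAA at 1, and Mki67 held them at 3 and 2. CCAAT was present in 20 of the 26 windows of the list (76.9%) against 34.5% of all genes, and TTTGAA in 8 of 26 (30.8%) against 16.3%.

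**Figure D3:**
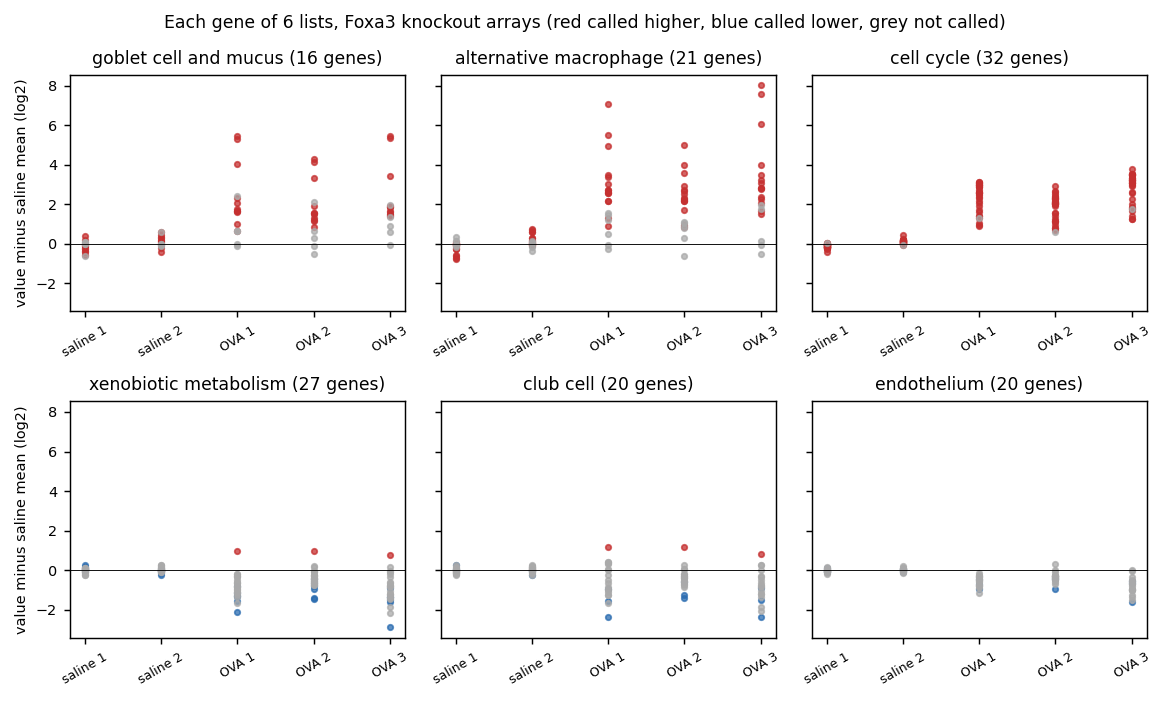
Value minus the saline mean (log2, vertical axis) of every measured gene of 6 lists on each of the 5 Foxa3 knockout arrays; red genes were called higher, blue genes called lower and grey genes not called. All 32 cell cycle genes lie above 0 on each OVA array, whereas the 20 endothelial genes lie mostly below 0, with 3 called.

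Of 27 interferon-response genes 13 rose and 0 fell. The list median was 0.84 (1.04 within slide 1 and 1.09 within slide 2), and 10 rose with slide as a block. The GTPase Iigp1 went from 2.12 and 2.66 to 4.19, 4.15 and 4.17 (1.77 ± 0.24, adjusted p 0.00533). The antiviral GTPase Mx1 went from -4.09 and -3.59 to -1.58, -1.99 and -1.62 (2.11 ± 0.29, adjusted p 0.00533). Oas1a, an oligoadenylate synthetase, went from -0.01 and -0.13 to 1.90, 1.39 and 2.37 (1.96 ± 0.28, adjusted p 0.00627). The GTPases Igtp and Gbp2 rose by 1.14 ± 0.20 and 0.95 ± 0.17 (adjusted p 0.013 and 0.0148). The count was 0 without saline 1, 3 without saline 2, 6 without OVA 1, 3 without OVA 3 and 7, 7 or 6 without control saline 1, 2 or 3. Of 15 class I and immunoproteasome genes 6 rose and 0 fell (median 0.53). Ubd is the first of these by p, followed by the immunoproteasome subunits Psmb8 (1.00 ± 0.17) and Psmb9 (0.96 ± 0.19), the activator Psme1 (0.66 ± 0.13) and the peptide transporter Tap1 (1.01 ± 0.25). That count was 1 without either saline array, 3 without OVA 1, 2 without OVA 3 and 10 without OVA 2.

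Windows of Oas1a and Igtp are shown as examples from the interferon list that hold the motif marked here, so they do not stand for the list. Iigp1 and Mx1 came before them by p. Neither is among the interferon genes named in the comparison with control lung given below. Capitals mark GAAA repeated after any 2 bases, the core of the interferon-stimulated response element, on both strands. Oas1a is chr5:120907526-120907775 on the minus strand and Igtp is chr11:58199306-58199555 on the plus strand.
Oas1a: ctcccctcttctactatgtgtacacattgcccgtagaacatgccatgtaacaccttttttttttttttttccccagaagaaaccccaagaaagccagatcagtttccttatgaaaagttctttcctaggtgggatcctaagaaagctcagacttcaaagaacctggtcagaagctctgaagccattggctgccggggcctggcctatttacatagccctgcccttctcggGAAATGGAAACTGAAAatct
Igtp: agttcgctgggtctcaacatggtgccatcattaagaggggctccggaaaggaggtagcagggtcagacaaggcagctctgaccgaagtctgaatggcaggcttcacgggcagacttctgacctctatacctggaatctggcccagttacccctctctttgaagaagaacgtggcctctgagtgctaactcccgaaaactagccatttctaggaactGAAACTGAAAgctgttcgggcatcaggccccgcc
The 2 matches in Oas1a overlap. The motif was present in 12 of 21 windows of the interferon list (57.1%), in 3 of 23 chemokine windows (13%) and in 3.04% of all genes.

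Of 22 genes of the secretory pathway 6 rose and 0 fell (median 0.54), among them Sdf2l1 (1.49 ± 0.23), Sec11c (0.95 ± 0.16), Pdia4 (1.20 ± 0.24), Sec61b (0.76 ± 0.17) and Dnajb11 (0.65 ± 0.15), with 2 calls with slide as a block. The count was 0 without saline 1, 1 without saline 2, 2 without OVA 1 or OVA 3 and 3 without any 1 control saline array or control OVA 3. Of 19 glycolysis and hypoxia genes 4 rose (median 0.50), namely Egln3 (1.71 ± 0.34), Ldha (0.66 ± 0.14), Pfkp (0.59 ± 0.13) and Pgk1 (0.94 ± 0.23), with 0 calls with slide as a block or without saline 1, saline 2, OVA 1 or OVA 3. Of 21 eicosanoid genes 7 rose and 1 fell (median 0.63). Beside Alox15, thromboxane synthase Tbxas1 rose by 2.28 ± 0.36, the prostaglandin receptor Ptger4 by 1.54 ± 0.28, the prostaglandin D synthase Hpgds by 1.08 ± 0.24 and Alox5ap by 0.81 ± 0.20. Rises numbered 0 without saline 1, 2 without saline 2 or OVA 3 and 3 without OVA 1. In the list of lipid oxidation (22 genes, median -0.13), Fabp1 fell with the fatty-acid transporter Cd36 (-0.75 ± 0.17) and Fabp4 rose (1.06 ± 0.23). Of 16 cholesterol synthesis genes Mvd rose (0.73 ± 0.19), and of 20 oxidative phosphorylation genes Cox5a rose (0.84 ± 0.18), while its second probe differed by -0.23. None of these last 5 was called with slide as a block. The single rises in these 3 lists lie near the share of all genes called up, 6.45%. Of 22 ribosomal protein genes 0 were called (median 0.06). Rpl3 (whose spot was flagged on saline 1 and left out there), Rpl4 and Rpl5 differed by -0.08 ± 3.39, 0.03 ± 0.13 and -0.13 ± 0.10 (adjusted p 0.992, 0.905 and 0.421).

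Stress, clock and other-tissue lists are given as measured, and their part in the results above was not tested. Over all genes 6.45% were called up and 1.79% down. Lists below with a single call up lie near the former share. Of 13 heat shock genes 0 were called, and the median of 0.12 stood for 1.06 within slide 1 and -0.62 within slide 2. Hspa1a, for example, lay at 5.25 and 4.95 after saline and at 7.79, 5.47 and 4.27 after OVA, so OVA 1 was high. Hspa8 differed by -0.06, and Hspa1b was not measured. Of 19 immediate-early genes Atf3 rose (1.58 ± 0.33), and of 17 clock genes Bhlhe40 rose (1.34 ± 0.33). Neither was called with slide as a block (adjusted p 0.0541 and 0.0908). Of 16 cardiac muscle genes 0 were called (median -0.11). Myh6, Myl7 and Myl4 differed by -0.43 ± 0.40, -0.26 ± 0.34 and -0.54 ± 0.36 (adjusted p 0.503, 0.649 and 0.344). Of 10 skeletal muscle genes Myh2 and Mylpf (-0.54 ± 0.13) fell (median -0.25). The brighter probes of Myh1 and Myh4, named after their values were seen, differed by -0.33 and -0.37 and were not called, while their other probes, at -3.21 and -3.80, were called lower. Members above 0, likewise named after their values were seen, were Tnni2 (0.47), Acta1 (0.50) and Tnnt3 (0.45), and none was called. Of 11 adipocyte genes Fabp4 was the only call. Of 13 liver genes 3 fell (median -0.41), which are Fabp1, Pon1 and Sult2a2 from the falls above. Albumin (Alb), added after its values were seen as the defining liver gene, differed by -2.17 ± 1.14 (adjusted p 0.234). Members above 0, also named after their values were seen, were Ahsg (1.23), Apoa2 (0.45) and Apoa1 (0.34), and none was called. Of 11 erythroid and platelet genes 0 were called (median -0.36), and the globin gene Hba-a1 differed by -0.31. Of 11 genes of mesothelium, lymphatics and nerve 0 were called (median -0.19), with Msln at 0.05, Upk3b at -0.68 and Wt1 at 0.20. Krt5 was the only call among 10 genes of oesophagus, thyroid and thymus (median 0.52).

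Set beside the same contrast in control lung, most knockout calls were shared. In control lung 4147 genes were called (18.8%), 2392 up (10.8%) and 1755 down (7.95%). Of the 1819 knockout calls 85.3% were also called in control lung, and 37.4% of the control calls were called in the knockout. Both genotypes were called upward for 1233 genes and downward for 318. The gene LOC623121 was called in opposite directions (-0.82 in the knockout and 0.69 in controls), and is named here after its values were seen, outside the tally of genes chosen by the rule. The numbers of arrays differ (2 saline arrays against 3), so the counts cannot be compared as sizes of response. Across genes the differences in the 2 genotypes correlated at r = 0.81, where genes are not independent replicates.

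The difference of the 2 responses itself passed for 1 of 22085 features (0.00453%), and 568 had an unadjusted p under 0.05. That feature is the probe A_51_P378501, to which the files give no gene name and no position. It lay at -5.50 and -5.64 in the knockout after saline and at -8.74, -9.29 and -8.69 after OVA. In control lung it lay between -9.28 and -8.57 on all 6 arrays. It was well above background on the 2 knockout saline arrays and on 0 of the other 9, and it passed the filter on dim probes through those 2 arrays alone. The knockout fall is therefore a bound of at least 2.74-fold (adjusted p 0.000866), with no fold in control lung. The adjusted p of the difference between genotypes was 0.0392, but 9 of its 11 values lay below background, so no size is given for that difference. Its 60 bases are shown because they are all the files give to identify it.
A_51_P378501: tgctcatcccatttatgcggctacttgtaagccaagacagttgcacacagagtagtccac
No feature passed with either normexp setting, quantile normalization, no filter on dim probes, probes detected on all 11 arrays, a trended robust prior, array weights, slide as a block, the replicate block or the authors' value table. The same held without any 1 of the 3 slides, and without control saline 1 or 3, saline 1, or any 1 of the 6 OVA arrays of both genotypes.

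The 6 named genes with the smallest p for that difference did not pass (adjusted p 0.838 for each), and Irf7, Ifit1, Ifi27l2a and Usp18 among them are known interferon-induced genes. Irf7, the interferon regulatory factor, rose by 1.22 ± 0.28 in the knockout (-0.51 and -0.62 after saline; 0.71, 0.22 and 1.03 after OVA). In control lung it rose by 3.45 ± 0.25, to 2.94, 2.77 and 3.59. Ifit1 differed by 0.59 ± 0.24 in the knockout (adjusted p 0.133) and rose by 2.41 ± 0.21 in controls. Ifi27l2a rose by 1.29 ± 0.17 and 2.62 ± 0.16, Usp18 by 0.82 ± 0.19 and 2.13 ± 0.17, and Phf11d differed by 0.53 ± 0.19 in the knockout (adjusted p 0.103) and rose by 1.86 ± 0.17 in controls. On these 5 genes the 3 knockout OVA arrays lay below the 3 control OVA arrays, and the saline arrays of the genotypes overlapped except for Irf7, where the knockout arrays lay below the control arrays (-0.47 to -0.22). Cd209d, a lectin of myeloid cells, ran the other way, rising by 2.68 ± 0.20 in the knockout and 1.12 ± 0.18 in controls. Its saline arrays lay lower in the knockout (-4.37 and -4.50) than in controls (-3.50 to -3.35), and OVA 3 lay within the range of the control OVA arrays.

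**Figure D4:**
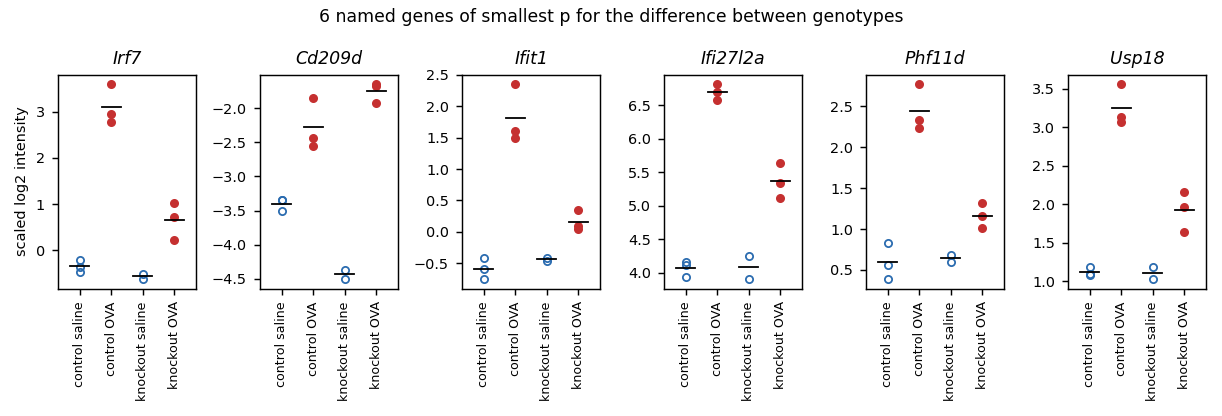
Scaled log2 intensity (vertical axis, a separate scale for each gene) on all 11 arrays for the 6 named genes of smallest p for the difference between genotypes; open blue points are saline arrays, filled red points OVA arrays and black lines group means. Knockout OVA arrays lie below control OVA arrays for 5 genes and overlap them for Cd209d, and the difference did not pass for any of them (adjusted p 0.838).

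In 5 lists every gene leaned one way, leaving out a list with 1 measured gene. The knockout difference lay below the control difference for all 27 interferon genes, with medians of 0.84 and 2.06. It lay below for all 20 T cell genes (medians 0.28 and 0.92) and above for all 32 cell cycle genes (medians 2.56 and 2.20). It also lay above for all 16 cardiac muscle genes (medians -0.11 and -0.94, with 0 and 4 called) and all 11 erythroid and platelet genes (medians -0.36 and -0.80, with 0 and 1 called), whose part in the other results was not tested. Over all genes it lay below for 11076 of 22085. No gene of these lists passed the test of the difference, so the lean is given as a description. The goblet cell list had medians of 1.54 in the knockout and 1.39 in controls, and 6 of its 16 genes lay below the control value. All 11 goblet genes called in the knockout were called in controls too, where 14 of the 16 were called. Foxa3 itself was among those called in controls alone (adjusted p 0.00496).

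**Figure D5:**
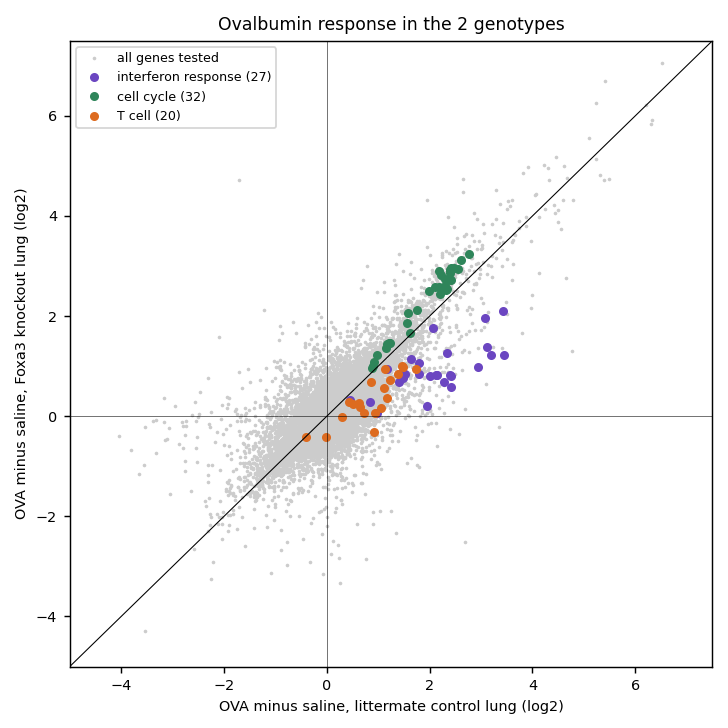
OVA minus saline (log2) in littermate control lung (horizontal) and in Foxa3 knockout lung (vertical) for the 22085 genes tested (grey), with 27 interferon-response, 32 cell cycle and 20 T cell genes in colour and the line of equal response. Interferon and T cell genes lie below the line and cell cycle genes above it.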

How the data were processed

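Lung RNA came from RNeasy columns and was amplified with a one-colour low-input kit, per the labels' protocols. The deposited scanner files hold the intensity of each spot. Feature Extraction made them, version 9.5.1.1 per the file headers and 9.1 per the submitters' processing notes. The authors' deposited value table holds log2 values whose scaling method is not given in the sources used here, and it served as an alternative. The values are log2 of the background-subtracted signal minus each array's 75th percentile. Control spots and spots with an outlier flag were left out. Flags of the scanner software for background and saturation were used as deposited (other values of 0 or 1). A filter kept the 32945 of 41174 probes that the scanner software called well above background on 2 or more arrays, and the brightest stood for each gene (22085). A total of 5813 of these had no usable symbol. Probes were named by accession in 22951 cases, by a current symbol in 6659 and by an older synonym in 3109, and 8455 kept the file's name.

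Group means over 11 arrays were fitted with limma 3.58.1 in R 4.3.3, with Benjamini-Hochberg adjustment, and the code was tested on simulated data. The number of arrays limits the precision. Correlations between arrays of one group were 0.978 to 0.993. Named genes are the 14 largest called rises and falls with a symbol and no overlap between groups, up to 5 called members of each list by smallest p, the Foxa genes, the first 3 genes of lists without a call, and for the difference between genotypes the feature that passed and the 6 named genes of smallest p. The samples, lists and rules were chosen with earlier results of these data known. Promoter windows come from RefSeq. Some genes that the rule would name are not reported here.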

Additional observations from a re-analysis of the deposited data

Results flagged for a closer look

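Probe A_51_P378501 passed the test of the difference between the responses of the genotypes (limma, adjusted p 0.0392). It entered the tested set only through the 2 knockout saline arrays. No feature passed without a filter on dim probes or under the other settings listed for it above. The signal was above background on the 2 knockout saline arrays alone, so the fitted knockout minus control value of -3.58 on the log2 scale sets measured values against values at background and gives no measured size. All 3 knockout OVA arrays lay below both knockout saline arrays, a fall of at least 2.74-fold. The 4 groups hold 2 or 3 arrays each and were not tested for a single array far from the others.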

How the results depend on the processing

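Of 160 called genes chosen by the naming rule, 0 changed direction under 19 other settings or with any 1 of 11 arrays left out, while calls depended strongly on the setting. Leaving out arrays could not change a direction, since the groups did not overlap for any called gene. Against 1819 calls in knockout lung (1424 up, 395 down; 960 and 87 at least 2-fold), 1 for the difference between genotypes and 4147 in control lung, the values that moved by over 1.5 times were as follows. With normexp background correction there were 0 in all, 0 up, 0 down, 0 at least 2-fold up, 0 at least 2-fold down, 0 for the difference and 0 in control lung. With normexp without spots of bright local background there were 818 down and 0 for the difference. With quantile normalization there were 0 for the difference. Without a filter on dim probes there were 1185 in all, 150 down, 45 at least 2-fold down and 0 for the difference. Over probes detected on all 11 arrays there were 744 down and 0 for the difference. With the 5 knockout arrays alone there were 440 in all, 418 up, 22 down, 406 at least 2-fold up and 19 at least 2-fold down. With trended robust prior there were 2791 in all, 924 down, 148 at least 2-fold down and 0 for the difference. With array weights there were 3489 in all, 1367 down, 234 at least 2-fold down, 0 for the difference and 8560 in control lung. With slide as a block there were 856 in all, 794 up, 62 down, 20 at least 2-fold down, 0 for the difference and 2734 in control lung. With the replicate block there were 722 in all, 680 up, 42 down, 568 at least 2-fold up, 13 at least 2-fold down and 0 for the difference. With the authors' value table there were 2885 in all, 1227 down and 0 for the difference. Without slide 1 there were 13 in all, 10 up, 3 down, 10 at least 2-fold up, 3 at least 2-fold down, 0 for the difference and 27 in control lung. Without slide 2 there were 3 in all, 3 up, 0 down, 3 at least 2-fold up, 0 at least 2-fold down, 0 for the difference and 1874 in control lung. Without slide 3 there were 812 down, 315 at least 2-fold down, 0 for the difference and 526 in control lung. With each array left out in turn there were 83 to 3342 in all, 78 to 2027 up, 5 to 1315 down, 78 to 1226 at least 2-fold up, 5 to 343 at least 2-fold down, 0 to 1 for the difference and 1051 to 6311 in control lung. Correlations of same-numbered deviations ran from -0.40 to 0.34. They cannot decide whether the numbers pair the samples, since deviations from means of 2 or 3 arrays are tied within a group. Some same-numbered arrays also shared a slide. With the replicate block 65 of the 160 lost their call. With 2 saline arrays, leaving one out leaves a lone array that is assumed to vary like the other groups. The causes of these shifts were not tested. With 2 and 3 arrays per group, and signals near background for some genes, a missing call shows no absence of change.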
